A study of Mus musculus with 6 samples.

Results

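Proteins that start clathrin-coated pits, bend the membrane under them and cut the vesicle free were followed at the RNA level, through 10 genes, in 2 related mouse breast cancer lines. These were the muniscins Fcho1 and Fcho2, the sorting nexins Snx9, Snx18 and Snx33, the scaffold genes Eps15 and Itsn1, the amphiphysin family gene Bin1 and the dynamins Dnm1 and Dnm2. They are 10 of 35905 genes with a transcript in the data, and all 10 were among the 13247 genes with enough counts for the test. Fcho1 and Snx18 were chosen by their counts and TPM in these same libraries, low in Parental and high in LM2, so their values are a description and carry no test. The other 8 were named because they are paralogs or partners of these genes, with earlier results of these data known. They were tested together with all other genes.

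RNA was taken from 2 lines, EO771-tdT-Parental and EO771-tdT-LM2, called Parental and LM2 here, with 3 libraries each. EO771 is a mammary tumour line from the mouse, and both derivatives carry the tag tdT in their names and the genotype label WT. Both were grown for 48 h to about 75% confluence in RPMI 1640 with 10% serum, with no treatment named. The labels do not tie the 3 libraries of a line to separate cultures. The p-values therefore reflect the spread between libraries, which may be technical, and each condition is represented by 1 line. The labels do not say how LM2 was obtained or what the tag Ac6 in the Parental titles means.

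In clathrin-mediated endocytosis, FCHo proteins bind the plasma membrane early through a curved F-BAR domain and bring in the adaptor AP2 and the scaffolds EPS15 and intersectin. Amphiphysins such as BIN1 and the sorting nexins SNX9, SNX18 and SNX33 carry BAR domains for stronger curvature together with SH3 domains that bind dynamin. Dynamins are GTPases that wind around the neck of the pit and sever it. DNM2 is the widely expressed form and DNM1 is best known from nerve terminals.

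Depth was 33922699 to 45849019 estimated counts per library, of which mitochondrial genes took 1.06% to 1.43%. The lines differed broadly: 8272 genes, or 62.4% of those tested, were called at an adjusted p below 0.05 (edgeR quasi-likelihood test, Benjamini-Hochberg), 31.4% higher and 31.1% lower in LM2. The median log2 fold change of all genes tested was -0.0037, and the middle 90% lay between -0.69 and 1.29. The labelled breast origin was only partly visible. Krt8 had 420 (Parental) and 568 (LM2) CPM, which are counts scaled to library depth. Krt18, Krt5, Cdh1 and Trp63 lay below 0.2 CPM in both lines. Transcripts matched to no gene held 0.426% to 0.448% of the counts per library, and their part in these low values was not tested. Epcam went from 0.154 to 14.97 CPM and Krt14 from 1.11 to 8.47 CPM, and the 7 epithelial markers summed to 416 to 428 CPM in Parental and 584 to 604 CPM in LM2.

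The sequences that the isoform results below turn on are a pair of alternative coding exons in each dynamin gene. Their main coding transcripts use either the upstream or the downstream exon of the pair, which both have 139 bases. The exons are given 5′ to 3′ on the gene's strand, from GENCODE M21 on GRCm38, with capitals where the exons of the same gene differ. Dnm2 lies on the plus strand, with the upstream exon at chr9:21478899-21479037 and the downstream exon at chr9:21480407-21480545. Dnm1 lies on the minus strand, with the upstream exon at chr2:32334682-32334820 and the downstream exon at chr2:32333066-32333204.
Dnm2 upstream exon: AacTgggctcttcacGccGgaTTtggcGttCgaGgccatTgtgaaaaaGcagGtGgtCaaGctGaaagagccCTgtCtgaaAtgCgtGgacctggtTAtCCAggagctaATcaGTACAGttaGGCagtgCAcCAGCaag
Dnm2 downstream exon: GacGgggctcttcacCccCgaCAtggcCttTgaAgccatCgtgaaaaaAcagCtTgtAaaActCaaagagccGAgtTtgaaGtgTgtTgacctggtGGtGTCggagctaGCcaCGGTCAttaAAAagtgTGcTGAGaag
Dnm1 upstream exon: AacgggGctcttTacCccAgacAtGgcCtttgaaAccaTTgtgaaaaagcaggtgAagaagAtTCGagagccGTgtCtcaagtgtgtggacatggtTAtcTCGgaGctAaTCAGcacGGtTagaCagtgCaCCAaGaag
Dnm1 downstream exon: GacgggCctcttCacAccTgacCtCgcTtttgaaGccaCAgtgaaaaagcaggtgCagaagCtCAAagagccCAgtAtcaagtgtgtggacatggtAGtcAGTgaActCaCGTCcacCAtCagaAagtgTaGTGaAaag
The Dnm2 exons were identical at 95 of 139 positions (68.3%) and the Dnm1 exons at 100 (71.9%). The upstream exons of the 2 genes were identical to each other at 110 of 139 positions (79.1%), and the downstream exons at 101 (72.7%). No run of 31 bases was shared within a pair. Each gene also has an optional 12-base exon further downstream, which is shown because its use was compared as well. In Dnm2 it lies at chr9:21490658-21490669 and in Dnm1 at chr2:32323179-32323190.
Dnm2 12-base exon: GGGGAGATCTTG
Dnm1 12-base exon: GATGAGATTCTG

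Fcho1 was close to absent in Parental and clearly expressed in LM2. Its counts in the Parental libraries were 2, 6 and 5, and in the LM2 libraries 1555, 1418 and 1630. Scaled for depth, these were 0.0440, 0.165 and 0.124 CPM against 45.0, 42.0 and 42.7 CPM. The ranges lay far apart, with a CPM ratio of 389 that rests on 13 counts in Parental, and a log2 fold change of 8.62 that ranged from 8.20 to 8.99 when each library was left out in turn. Per length, Fcho1 went from 0.178 ± 0.0483 TPM to 61.2 ± 3.3 TPM (transcript abundance scaled for length and depth; SD, n = 3). Much of that TPM belongs to a short model: Fcho1-203, of 443 bases, held 13.96% of the LM2 counts but 61.7% of the LM2 TPM. The full-length coding transcript Fcho1-201, of 3073 bases, held 61.9% ± 3.70 of the LM2 counts. Counting only protein-coding transcripts of at least 1000 bases, Fcho1 stood at 0.0330 ± 0.0345 TPM in Parental and 13.9 ± 0.973 TPM in LM2. In bulk RNA a larger share of expressing cells and more RNA per cell cannot be told apart.

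Fcho2, the widely expressed muniscin, was present in both lines at similar levels. Its libraries gave 52.8, 56.6 and 54.6 CPM in Parental and 64.0, 60.1 and 62.7 CPM in LM2. The CPM ranges did not overlap, and the gene was called higher with a log2 fold change of 0.19 ± 0.04 (SE; adjusted p = 1.01e-04, edgeR). Its TPM ranges did overlap, at 32.0 ± 1.41 and 32.8 ± 1.40, and with the lengths of the expressed transcripts in the edgeR fit the log2 fold change was -0.0011 (adjusted p = 0.989). From protein-coding transcripts of at least 1000 bases, also scaled for length, Fcho2 gave 11.9, 9.49 and 11.0 TPM in Parental. In LM2 these transcripts gave 14.4, 14.0 and 14.8 TPM, without overlap. The rise of Fcho2 therefore depended on which transcripts were counted and on how their length was taken into account. Fcho1 made up 0.554% ± 0.147 of the summed TPM of both muniscins in Parental and 65.1% ± 1.21 in LM2. By counts its LM2 share was 41.0%, and by long coding transcripts it was 49.1% ± 1.14. The summed TPM of the pair was 32.2 in Parental and 94.0 in LM2, or, from the long coding transcripts, about 10.8 from Fcho2 in Parental against 13.9 from Fcho1 and 14.4 from Fcho2 in LM2. Fcho2 was not called lower in LM2 in any of the 14 alternative settings.

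Snx18 showed the same on and off pattern as Fcho1. The Parental libraries held 4, 8 and 4 counts and the LM2 libraries 1170, 1048 and 1238. In CPM these were 0.0879, 0.220 and 0.0991 against 33.9, 31.1 and 32.4, again with no overlap. The log2 fold change was 7.92, and 7.66 to 8.39 with each library left out. Nearly all LM2 counts, 99.9% ± 0.142, fell on the 1 long coding transcript, so the level of 11.4 ± 0.346 TPM in LM2 does not hang on short models.

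Snx9 did not pass the test. Its libraries gave 134.4, 136.3 and 131.0 CPM in Parental and 133.7, 133.1 and 129.4 CPM in LM2, with a log2 fold change of -0.02 ± 0.03 (adjusted p = 0.550, edgeR). It stayed on that side of the threshold in all 14 alternative settings, with log2 fold changes of -0.04 to -0.01. Snx33, the third gene of the trio, rose modestly, from 24.7, 23.9 and 24.0 CPM to 30.8, 33.3 and 34.7 CPM, a log2 fold change of 0.44 ± 0.05 (adjusted p = 1.76e-07). In LM2 Snx18 and Snx33 stood side by side at 11.4 ± 0.346 and 11.2 ± 0.750 TPM, within their spread, while in Parental Snx33 at 8.10 ± 0.176 TPM was the only counterpart of Snx9. Snx9 remained the leading member in both lines, with 88.8% ± 0.218 of the summed TPM of the trio in Parental and 74.3% ± 0.895 in LM2, where Snx18 held 13.0% ± 0.264 and Snx33 12.7% ± 0.991. The Snx9 level itself overlapped between the lines, at 64.9 ± 1.40 and 65.6 ± 1.53 TPM, beside a summed TPM of 73.1 in Parental and 88.3 in LM2.

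**Figure D1:**
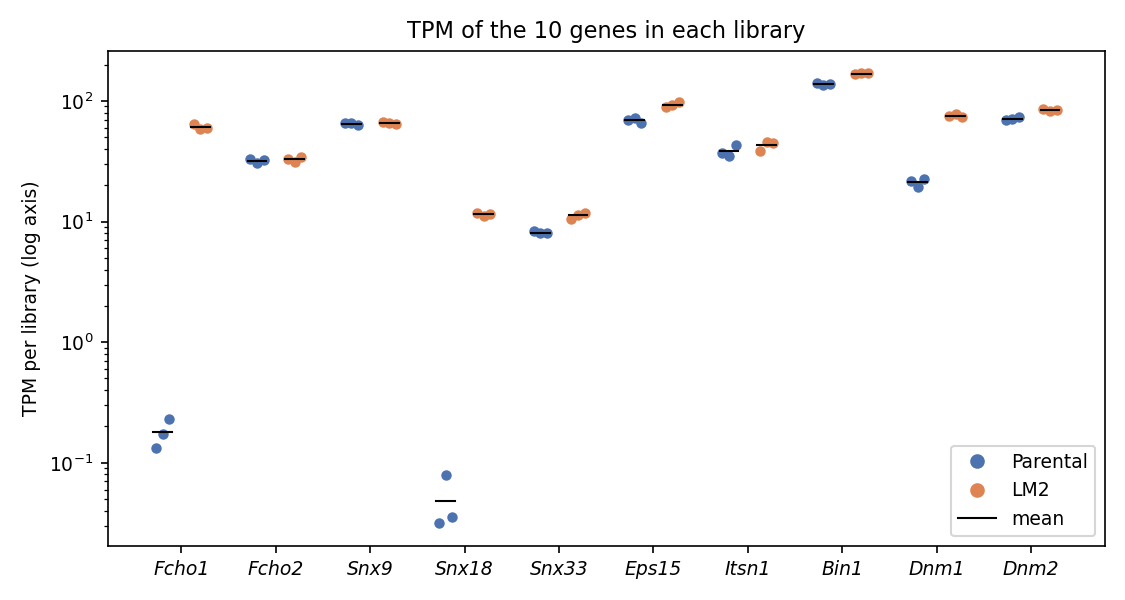
TPM of each of the 10 genes in the 3 Parental (blue) and 3 LM2 (orange) libraries on a log axis, with a line at the mean. Fcho1 and Snx18 lie below 0.3 TPM in every Parental library and above 11 TPM in every LM2 library, while Fcho2 and Snx9 overlap between the lines.

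The scaffold genes Eps15 and Itsn1, whose proteins carry EH domains, both rose by small amounts. Eps15 gave 151.9, 152.6 and 147.6 CPM in Parental and 191.7, 196.1 and 194.6 CPM in LM2, a log2 fold change of 0.37 ± 0.03 (adjusted p = 2.87e-11). Itsn1 gave 73.5, 72.6 and 74.0 CPM against 78.9, 81.3 and 86.0 CPM, a log2 fold change of 0.16 ± 0.03 (adjusted p = 2.64e-04). The Itsn1 TPM ranges overlapped, and with transcript lengths in the fit its log2 fold change was 0.12 (adjusted p = 0.250). Bin1, which forms and stabilises membrane tubules, rose from 151.1, 145.4 and 147.6 CPM to 174.4, 173.6 and 176.0 CPM, a log2 fold change of 0.24 ± 0.03 (adjusted p = 3.14e-08). By TPM it was the most abundant of the 10 genes in both lines, at 138 ± 2.96 and 169 ± 1.62.

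The dynamins differed in how far they rose. Dnm2 went from 143.1, 144.5 and 146.4 CPM to 168.6, 170.5 and 166.9 CPM, a log2 fold change of 0.22 ± 0.02 (adjusted p = 7.29e-08). Dnm1 went from 40.5, 38.8 and 42.2 CPM to 94.7, 98.3 and 96.0 CPM, a log2 fold change of 1.25 ± 0.04 (adjusted p = 7.40e-18). Among all genes tested, 5.19% had a larger log2 fold change than Dnm1. Both dynamins had no overlap between the lines.

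The size of the Dnm1 rise depended on the transcripts counted. Its CPM rose 2.38-fold, and its TPM went from 21.2 ± 1.73 to 75.4 ± 2.41, or 3.57-fold. Protein-coding transcripts of at least 1000 bases gave 17.0 ± 0.658 and 33.0 ± 1.08 TPM, or 1.95-fold. A short non-coding model, Dnm1-213 of 810 bases, had 34, 0 and 0 counts in Parental and 254, 343 and 327 in LM2. Its share of the Dnm1 counts rose from 0.609% ± 1.05 to 9.02% ± 1.29 (adjusted p = 3.79e-04, edgeR diffSpliceDGE). With limma diffSplice it did not pass (adjusted p = 0.121), and its log2 fold change relative to the gene moved from 2.62 to 6.98 without Parental replicate 1, the only Parental library with counts. A retained-intron model of 899 bases, Dnm1-211, held 6.83% of the LM2 counts. Dnm1 accordingly made up 47.2% ± 1.16 of the summed dynamin TPM in LM2 over all its transcripts and 29.9% ± 0.574 over the long coding ones, against 22.8% ± 1.32 and 20.7% ± 0.547 in Parental.

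**Figure D2:**
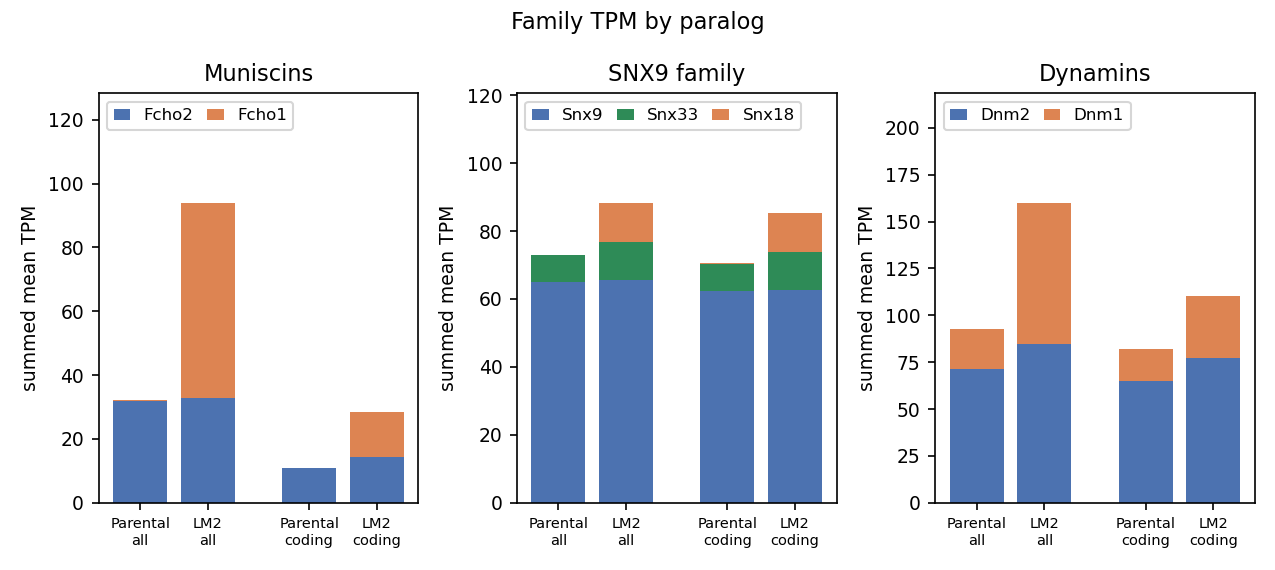
Mean TPM (vertical axis, from 0) stacked by paralog for the muniscins, the SNX9 family and the dynamins, from all transcripts (left pair of bars) and from protein-coding transcripts of at least 1000 bases (right pair). Fcho1 and Snx18 are added in LM2 on top of Fcho2 and Snx9, and the Dnm1 part is 75.4 TPM from all transcripts but 33.0 TPM from the long coding ones.

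Of the 8 genes named by kinship, 7 rose, none fell and Snx9 did not pass, against 31.4% of all genes tested called higher. All 7 had CPM ranges without overlap, as had 33.4% of all genes tested in that direction. Apart from Dnm1 the 6 called rises were small, with log2 fold changes between 0.16 and 0.44. In TPM over all transcripts, Fcho2 and Itsn1 overlapped between the lines. On that scale 5 of the 8 had separate, higher ranges in LM2, against 33.0% of all genes tested. The 8 genes were chosen with earlier results of these data known and were not tested as a set. The order by TPM in Parental was Bin1, then Dnm2, Eps15 and Snx9, then Itsn1 and Fcho2, then Dnm1, Snx33, Fcho1 and Snx18. Dnm2, Eps15 and Snx9, at 71.5, 69.3 and 64.9 TPM, overlapped with their neighbours in this order. In LM2 the order was Bin1, Eps15, Dnm2, Dnm1, Snx9, Fcho1, Itsn1, Fcho2, Snx18 and Snx33, with overlap between Snx9 and Fcho1, and between Snx18 and Snx33.

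The authors' deposited table of log2 fold changes lists all 10 genes. It gives 7.89 for Fcho1, 7.60 for Snx18 and 2.05 for Dnm1. For the rest, the authors' deposited table gives 0.44 for Snx33, 0.39 for Eps15, 0.27 for Fcho2, 0.21 for Dnm2, 0.15 for Itsn1, 0.07 for Bin1 and -0.02 for Snx9. The signs match the values of the main fit above. The widest gap is at Dnm1, where the deposited value lies above the 1.25 found here. It lies nearer to the 1.80 obtained with transcript lengths in the fit. Fcho2 and Bin1 do not follow this. Fcho2 had 0.19 here and -0.0011 with lengths, and Bin1 had 0.24 here and 0.25 with lengths. Neither the direction nor the log base is written in that table. Both were read from the 705 of its genes that were tested here and moved by more than 1 log2 unit, of which 705 had the same sign. The median ratio of the value in the authors' deposited table to the log2 fold change found here was 0.978 over these genes, with quartiles of 0.906 and 1.007.

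Of the 10 genes, Dnm2 had the most transcripts with a changed share. Over all genes, 0.714% of the transcripts tested had a share of their gene that differed between the lines (edgeR diffSpliceDGE, adjusted p below 0.05), and 2.57% of the genes had such a transcript. Among the 10 genes it was 5 of 53 transcripts, with 4 in Dnm2 and 1 in Dnm1, and the transcripts of a gene share one total and so do not vary independently. Dnm2-202 rose from 990, 958 and 1043 counts to 1770, 1995 and 2162, or from 17.0% ± 1.61 to 33.0% ± 2.30 of the Dnm2 counts (adjusted p = 4.56e-05). Dnm2-201 fell from 1864, 1355 and 1742 counts to 923, 960 and 579, or from 28.0% ± 1.91 to 13.9% ± 4.16 (adjusted p = 2.16e-04). Dnm2-201 carries the downstream exon of the pair and the 12-base exon, whereas Dnm2-202 carries the upstream exon and lacks the 12 bases.

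The other called Dnm2 transcripts share a distal last exon. Dnm2-212 fell from 515, 408 and 285 assigned counts to 0, 0 and 0 (adjusted p = 1.71e-10, and 0.130 with limma diffSplice). By counting error alone this allows a share of up to 0.0167%, or 3 counts of the 17949 over the LM2 libraries. That limit leaves out how kallisto divides reads among overlapping transcripts, so it does not show that Dnm2-212 is absent from LM2. Dnm2-204 rose from 843, 516 and 806 counts to 1303, 1202 and 1277, or from 12.1% ± 2.02 to 21.1% ± 1.18 (adjusted p = 0.0160). Together these transcripts held 19.5% ± 1.60 of the protein-coding Dnm2 counts in Parental and 21.6% ± 1.18 in LM2, with overlapping ranges. The call of Dnm2-204 was lost without Parental replicate 1 (adjusted p = 0.0601), without Parental replicate 2 (adjusted p = 0.281) and without LM2 replicate 1 (adjusted p = 0.111). Dnm2-211, with the downstream exon, held 33.3% ± 1.97 and 29.8% ± 4.32 and did not pass.

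**Figure D3:**
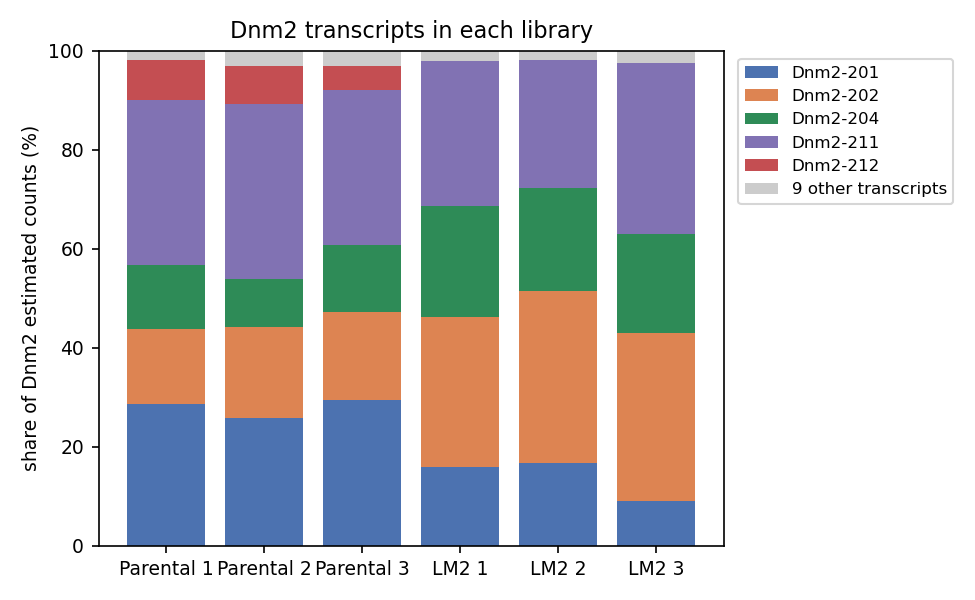
Share of the Dnm2 estimated counts (vertical axis, percent) held by its 5 main transcripts and by 9 others in each library. Dnm2-202 takes 33.0% on average in LM2 against 17.0% in Parental, and Dnm2-201 takes 13.9% against 28.0%. Counts were assigned to Dnm2-212 in the Parental libraries only.

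Because kallisto divides reads among overlapping transcripts, the counts were also summed over all transcripts that carry the same exon form. A splicing event was taken as any pair of forms between the same flanking splice sites, with at least 20 counts in every library and at least 5% for the minor form in 1 of the lines. All genes together gave 7500 events in 4115 genes, tested with limma on the log2 ratio of the forms. Of these, 34 (0.453%) were called, and 17.3% had form shares without overlap between the lines. Among the 10 genes, 6 had 15 events, of which 1 was called and 6 had no overlap.

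The called event was the Dnm2 exon pair. The upstream exon took 36.6%, 36.7% and 37.0% of the counts of both forms in the Parental libraries and 53.8%, 56.1% and 55.0% in the LM2 libraries. The shift from 36.7% ± 0.216 to 55.0% ± 1.14 turned a minor form into the slightly more common one (adjusted p = 0.00981, limma). It rested on 5129 to 6423 counts per library, and 3.93% of all events shifted by more percentage points. The adjusted p was 0.0329 to 0.0543 with each library left out in turn and was above 0.05 without Parental replicate 1, without Parental replicate 3 and without LM2 replicate 3, each time at a similar size of effect.

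In Dnm1 the upstream exon, which is the closer match to the upstream exon of Dnm2, was the major form in both lines. Its share was 83.7%, 84.9% and 83.3% in Parental and 91.7%, 93.2% and 90.7% in LM2, without overlap, and did not pass the test (adjusted p = 0.0850, limma). The 12-base exon was included in 76.5%, 73.4% and 77.1% of the Dnm2 counts in Parental and in 69.1%, 64.8% and 65.3% in LM2 (adjusted p = 0.148). For the 12-base exon of Dnm1 the inclusion was 36.5%, 34.9% and 36.6% in Parental against 19.8%, 21.8% and 29.4% in LM2 (adjusted p = 0.254). Both 12-base exons thus had lower values in every LM2 library, and neither passed the test across all events. With 3 libraries against 3 an exact permutation test of a single event cannot go below 0.10.

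A 37-base exon near the 3′ end of Dnm1 had the widest shift in share among the 15 events but few counts. It was included in 0%, 6.87% and 7.69% of the counts in Parental against 50.5%, 29.8% and 32.1% in LM2 (adjusted p = 0.371), on 190 to 377 counts per library. The last event without overlap was an alternative splice site in Eps15, where the 90-base form took 78.0% ± 0.909 in Parental and 74.5% ± 0.573 in LM2 (adjusted p = 0.341). In Bin1 the 72-base exon was included in 50.8% ± 1.81 and 53.0% ± 0.520 of counts and the 129-base exon in 31.5% ± 4.61 and 28.8% ± 3.15, with overlap for both. In Itsn1 the 15-base exon, known from neurons, was included in 5.59% ± 2.36 and 4.13% ± 0.310, also with overlap.

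**Figure D4:**
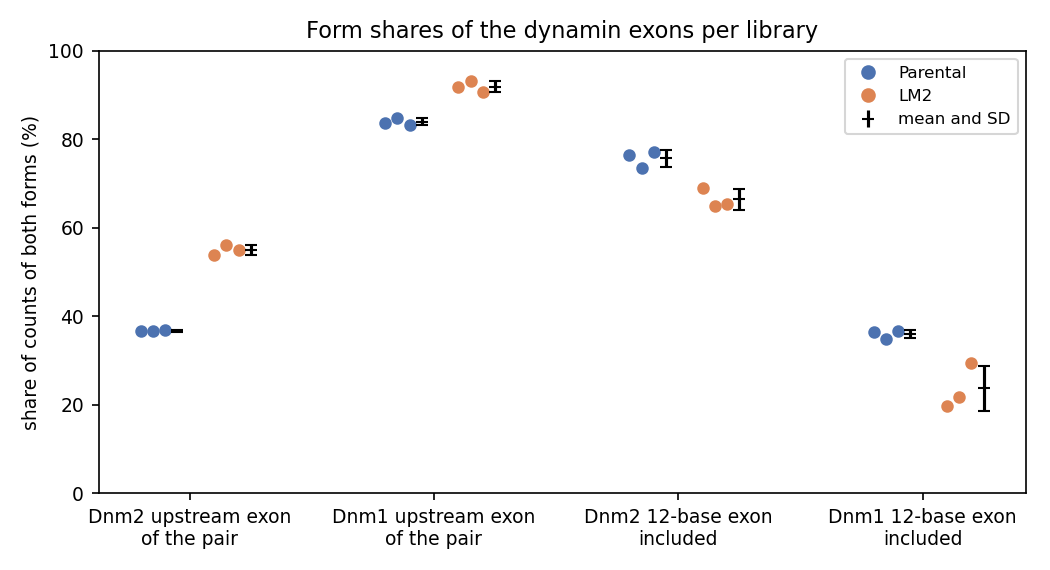
Share (percent of the counts of both forms, vertical axis) of the upstream exon of the pair and of the included 12-base exon for Dnm2 and Dnm1, with 1 point per library and the mean and SD beside them. The Dnm2 upstream exon lies near 37% in the 3 Parental libraries and between 53.8% and 56.1% in LM2, and the other events shown have no overlap but did not pass the test.

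Of 4 tested paralogs outside the 10 genes, 1 rose and 3 fell, all by small amounts, where 31.4% of all genes tested were called higher and 31.1% lower. Eps15l1 and Itsn2, the closest relatives of Eps15 and Itsn1, fell by 0.18 and fell by 0.14 on the log2 scale (adjusted p = 1.11e-04 and 5.90e-05), opposite in direction to Eps15 and Itsn1. Itsn2, with 146 ± 1.08 and 132 ± 1.06 CPM in the lines, was above Itsn1 in counts. Bin3 fell by 0.16 (adjusted p = 0.00642, and 0.0548 without Parental replicate 1), and the neuronal muniscin relative Sgip1 rose by 0.30 (adjusted p = 0.00203). Amph had no count in any library, and Bin2 and Dnm3, at 0.134 and 0.103 CPM in LM2, were too low to be tested.

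The core coat changed by small amounts. Of 8 genes for clathrin and AP2, 2 rose, 2 fell and 4 did not pass. The counts of this and the following lists stand beside 31.4% of all genes called higher and 31.1% called lower. The light chain Clta rose from 135 ± 1.78 to 199 ± 2.25 CPM, with a log2 fold change of 0.56 (adjusted p = 1.64e-14), while the other light chain, Cltb, fell by 0.16 (adjusted p = 0.00255). The AP2 subunit Ap2a2 rose by 0.38 (adjusted p = 3.31e-11) and the subunit Ap2m1 fell by 0.06 (adjusted p = 0.0346). The Ap2m1 call was lost without Parental replicate 1, Parental replicate 3 or LM2 replicate 3 (adjusted p = 0.0864, 0.132 and 0.121), with a filter at 1 CPM (adjusted p = 0.0501) and with effective lengths (adjusted p = 0.0777). The Cltb call was lost with effective lengths (adjusted p = 0.0546). The heavy chain Cltc, at 466 ± 18.7 and 457 ± 20.3 CPM, and Ap2a1, at 213 ± 2.67 and 219 ± 4.87 CPM, did not pass. The median of the 8 was -0.01, near that of all genes.

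Among cargo adaptors and accessory proteins 7 rose, 7 fell and 5 of 19 tested did not pass. Sh3kbp1, which links the ubiquitin ligase CBL to endophilins, fell from 57.9 ± 1.21 to 23.8 ± 1.39 CPM (log2 fold change -1.29, adjusted p = 5.10e-16). Arrb2, the beta-arrestin that brings activated receptors to pits, fell by 0.59 (adjusted p = 1.63e-08). Hip1, which links pits to actin, rose from 28.1 ± 0.761 to 51.3 ± 2.58 CPM (log2 fold change 0.87, adjusted p = 3.55e-13). Cd2ap and Tnk2 did not pass, at log2 fold changes of -0.01 and 0.06; without Parental replicate 3, Tnk2 did (adjusted p = 0.0369).

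The kinases, lipid enzymes and uncoating factors of the pit were likewise split, with 6 higher, 4 lower and 2 not passing of 12 tested. Pip5k1c, which makes the lipid that recruits FCHo proteins and AP2, fell from 219 ± 1.91 to 159 ± 5.02 CPM (log2 fold change -0.46, adjusted p = 1.36e-12), and the phosphatase gene Ocrl fell by 0.42 (adjusted p = 1.13e-06). Synj2, a phosphatase of the same lipid, rose by 0.34 (adjusted p = 2.09e-08) and the kinase gene Bmp2k by 0.31 (adjusted p = 1.72e-07). The adaptor kinases Gak and Aak1 did not pass, at log2 fold changes of 0.01 and -0.01, though with transcript lengths in the fit Aak1 was called higher at 0.14 (adjusted p = 0.00816).

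Of 23 other BAR and F-BAR genes tested, 16 rose, none fell and 7 did not pass, against 31.4% of all genes called higher and 31.1% lower. The median log2 fold change was 0.19, and -0.0037 for all genes. Fnbp1l, whose F-BAR protein TOCA-1 drives actin assembly on curved membranes, rose from 18.5 ± 0.889 to 42.4 ± 0.610 CPM (log2 fold change 1.19, adjusted p = 7.18e-15), and its paralog Fnbp1 rose by 0.46 (adjusted p = 1.38e-12). Srgap3, an inverse F-BAR protein, rose by 0.61 (adjusted p = 1.82e-14), and the endophilin relative Sh3glb2 rose by 0.53 (adjusted p = 1.69e-10). Srgap2 and Trip10, at log2 fold changes of 0.04 and 0.05, did not pass, and Srgap2 did with transcript lengths in the fit (adjusted p = 0.0119). The list was drawn up with earlier results of these data known and was not tested as a set.

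Genes for actin assembly at pits gave 9 higher, 6 lower and 4 not passing of 19 tested. Myo1e, a motor found at sites of internalisation, rose by 0.42 (adjusted p = 5.46e-11) and Cdc42 by 0.31 (adjusted p = 1.29e-10). Wipf1 fell by 0.27 (adjusted p = 4.60e-07), a call lost with transcript lengths in the fit (0.0272, adjusted p = 0.845), and the Arp2/3 subunit gene Arpc1b fell by 0.24 (adjusted p = 7.90e-09). Actr3 and Arpc5 did not pass, at log2 fold changes of 0.03 and -0.01.

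Genes of caveolae, flotillins and EHD proteins, which serve entry without clathrin and recycling, gave 7 higher, 2 lower and 1 not passing of 10 tested, again beside 31.4% and 31.1% of all genes. Flot1 rose from 26.1 ± 0.256 to 50.2 ± 2.94 CPM (log2 fold change 0.95, adjusted p = 1.36e-13). Ehd4 rose by 0.57 (adjusted p = 2.21e-13) and Ehd1 by 0.44 (adjusted p = 1.11e-11). Cav2 fell by 0.34 (adjusted p = 6.08e-09) and Ehd2 did not pass at -0.04. The other called genes of this list were Cav1, lower, and Cavin1, Cavin2, Cavin3 and Cavin4, all higher. Cavin2 had the largest change of the list, at 4.32, but Cavin2 and Cavin4 lay below the 5 CPM set for named genes. Other sorting nexins, which mostly act on endosomes, split evenly into 4 higher, 4 lower and 5 not passing of 13. Snx30 rose by 1.35 (adjusted p = 1.05e-15) and Snx2 by 0.29 (adjusted p = 2.03e-08), and Snx7 fell by 0.79 (adjusted p = 9.18e-10) and Snx3 fell by 0.39 (adjusted p = 1.37e-09). Snx27 and Snx4 did not pass, at -0.0005 and 0.03.

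Of 13 tested receptors that are carried by these pits, 3 rose, 7 fell and 3 did not pass, where 31.1% of all genes were called lower. Egfr fell from 36.1 ± 1.87 to 18.0 ± 0.756 CPM (adjusted p = 5.36e-13), and Met, the receptor for hepatocyte growth factor, fell by 0.67 (adjusted p = 8.74e-09). The large scavenger receptor gene Lrp2 fell from 172 ± 12.8 to 85.9 ± 11.9 CPM (adjusted p = 0.00224). Igf2r, which carries lysosomal enzymes, rose by 0.82 (adjusted p = 8.68e-13). Lrp1, at 369 ± 24.6 and 284 ± 39.1 CPM (adjusted p = 0.0586), did not pass. It was called lower with upper quartile factors (adjusted p = 0.0480), DESeq2 (adjusted p = 0.00658), limma voom (adjusted p = 6.50e-04) and effective lengths (adjusted p = 0.00599), and without LM2 replicate 2 (adjusted p = 0.0337). Over all 9 lists, 55 of 121 tested genes were higher and 35 lower, so 74.4% were called against 62.4% of all genes, with a median log2 fold change of 0.08.

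**Figure D5:**
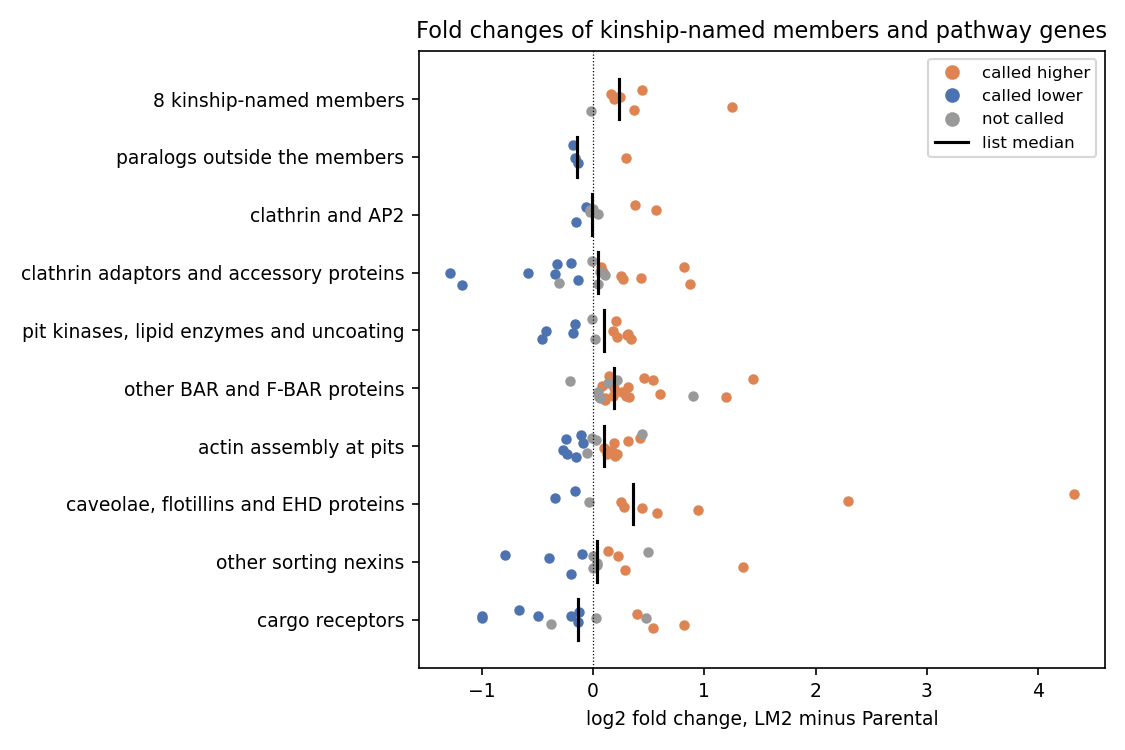
Log2 fold change (horizontal axis, LM2 minus Parental) of the 8 kinship-named genes and of the tested genes of each pathway list, 1 point per gene, coloured by call, with a bar at the list median. The BAR and F-BAR list has 16 points called higher and none called lower, and clathrin and AP2 genes lie around 0.

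Gene levels differed between the lines along whole chromosomes. Genes of chromosome 4, where Eps15 lies, had a median log2 fold change of 0.39, and 73.6% of its 829 tested genes were called higher. The 10 tested neighbours of Eps15 had a median of 0.53, with 8 higher and none lower, so the rise of Eps15 by 0.37 was no larger than that of its surroundings. Chromosome 8, where Fcho1 lies, had a median of -0.31, and the 10 tested neighbours of Fcho1 had a median of -0.45, with 8 lower and none higher. The tested genes on either side of Fcho1, B3gnt3 and Zfp709, stood at log2 fold changes of -0.41 and 0.34.

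For the other members the surroundings were near 0. The medians over 10 neighbours were -0.08 for Fcho2, 0.10 for Snx9, -0.05 for Snx18, 0.04 for Snx33, -0.03 for Itsn1, -0.10 for Bin1, 0.10 for Dnm1 and -0.04 for Dnm2. Beside Snx18, the gene BC067074 went from 0.576 to 3.94 CPM while Arl15 on the other side went from 20.6 to 16.1 CPM. Chromosomes 8, 10, 12 and 6 had 64.5%, 62.8%, 51.3% and 49.4% of their tested genes called lower. The pathway lists above stand beside shares over all chromosomes together. The part of chromosome-wide change in the Eps15 value and in the values of the pathway genes was not tested.

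Fcho1 and Snx18 lie on different chromosomes and had each other as the nearest profile among all genes tested, by the Euclidean distance of log2 CPM over the 6 libraries (0.98). The next nearest were Pla2g5, at a distance of 1.22 from Fcho1 and 1.10 from Snx18, and Il2rg, at 1.61 and 1.19. Pla2g5, a secreted phospholipase gene, went from 0.0908 to 29.5 CPM and Il2rg, a shared subunit of interleukin receptors, from 0.186 to 35.7 CPM. This measure ranks genes that are near 0 in Parental and at similar level in LM2, and the distance was computed on the same values that chose Fcho1 and Snx18.

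To describe the genes with on and off levels, which were chosen for that shared pattern, the 250 bases before the RefSeq starts of Fcho1 and Snx18 are shown, on GRCm38.p6 and on the minus strand in both cases, at chr8:71725682-71725931 for Fcho1 and chr13:113618565-113618814 for Snx18. Capitals mark an octamer (ATGCAAAT) in the first and an E-box (CACGTG) in the second.
Fcho1 upstream: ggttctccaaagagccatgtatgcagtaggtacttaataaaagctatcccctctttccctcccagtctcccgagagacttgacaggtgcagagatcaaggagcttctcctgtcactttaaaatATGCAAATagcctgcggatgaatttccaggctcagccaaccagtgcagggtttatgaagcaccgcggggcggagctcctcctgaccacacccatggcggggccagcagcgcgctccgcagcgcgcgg
Snx18 upstream: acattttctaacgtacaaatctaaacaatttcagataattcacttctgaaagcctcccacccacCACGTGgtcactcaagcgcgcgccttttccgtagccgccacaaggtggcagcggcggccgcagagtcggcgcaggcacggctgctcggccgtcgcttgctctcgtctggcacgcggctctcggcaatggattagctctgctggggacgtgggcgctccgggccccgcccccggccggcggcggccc
The Snx18 window had a GC content of 64.4% and 28 CpG, more than 92.4% of 32851 windows of the same length, and the Fcho1 window had 56.0% and 12 CpG, beside medians of 52.4% and 6 over all windows. Searched on both strands, the octamer stood in 1.60% of all windows and the E-box in 6.02%; both were picked after the letters were seen. The TATA box (TATAAA), the AP-1 site (TGANTCA) and the site GGAATG, found in 12.4%, 6.75% and 12.6% of windows, were in neither. In Fcho1 the transcripts that start within 100 bases of this RefSeq start held only 19.0% ± 4.61 of the LM2 counts, whereas the main model Fcho1-201 starts further inside the gene. In Snx18 the transcript from this start held 99.9%.

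Most markers of other cell types were low, apart from Pdgfra, Pdgfrb and Ckm. Of 8 leukocyte markers Ptprc, Cd3e, Itgam and Adgre1 were below 0.1 CPM in both lines, and the list summed to 4.55 to 4.74 CPM in Parental and 6.60 to 7.57 CPM in LM2. The tested leukocyte markers went both ways, with Cd79a higher at 0.113 and 3.21 CPM, Cd68 higher at 1.75 and 2.68 CPM, and Lyz2 lower at 2.51 and 0.831 CPM. Of 6 neuronal markers, listed because Dnm1 is abundant in neurons, Syt1, Rbfox3, Map2 and Stmn2 were below 0.1 CPM in both lines and the list summed to 0.496 to 0.681 and 0.682 to 0.897 CPM. Of 6 muscle markers, listed because BIN1 shapes muscle membranes, Myod1 and Myog had no counts, while Ckm went from 0.0660 to 7.05 CPM and the list from 1.24 to 1.61 CPM in Parental to 10.2 to 11.95 CPM in LM2. Endothelial markers summed to 3.40 to 4.19 and 4.12 to 4.60 CPM and adipocyte markers to under 0.5 CPM. Fibroblast markers summed to 173 to 181 and 215 to 242 CPM, nearly all of it from Pdgfra, which rose from 126 to 181 CPM, and Pdgfrb, which did not pass at 49.1 and 47.9 CPM. Col1a2 fell from 0.926 to 0.232 CPM, and Dcn and Lum were below 0.1 CPM. Their part in the results above was not tested.

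Little sequence was shared with other genes. Of the 31-base words in the reference transcripts, none in Snx9, Snx18, Snx33, Eps15 and Bin1 occurred in another gene. For the others it was 0.108% in Fcho1, 0.144% in Dnm1, 0.514% in Itsn1, 2.17% in Fcho2 and 3.48% in Dnm2. Dnm1 shared 8 words, all with Dnm2, while the 190 shared words of Dnm2 occurred in Dnm1, Dnm3 or Tmed1. Tmed1 is the next tested gene after Dnm2 on its chromosome, and its part in the Dnm2 results was not tested.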

How the data were processed

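RNA was sequenced from 3 Parental and 3 LM2 libraries, per the labels. The authors deposited estimated counts and TPM per transcript, made with kallisto 0.46.2 against GRCm39 per the submitters' processing notes. Transcript set and strand setting are not given in the sources, so overlapping and antisense genes may share reads. The authors also deposited log2 fold changes (edgeR 3.32.1 in the same notes).

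Of 117486 transcripts, 116408 matched a gene of GENCODE M21 (GRCm38), and coordinates are printed only with sequences of that build. Counts were summed per gene, rounded, filtered with filterByExpr, scaled with TMM and tested with edgeR 4.0.16 (R 4.3.3), robust quasi-likelihood, no covariate. The threshold was an adjusted p (Benjamini-Hochberg) of 0.05. Levels are CPM or TPM, mean ± SD over 3 libraries. Transcript shares were tested with diffSpliceDGE on 36294 transcripts and exon forms with limma 3.58.1 (pseudocount 0.5), all tried on simulated data first. Alternatives were DESeq2 1.42.0, voom, scalings, filters, effective lengths, a replicate block and left-out libraries.

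The members and gene lists were chosen with earlier results of these data known. The rule for named genes took the 10 members, 7 further paralogs, per list up to 4 called genes with 5 CPM or more, ranked by fold change, and up to 2 abundant ones that did not pass, the 3 nearest profiles, and transcripts of at least 5% of their gene. Some genes that this rule takes are not reported here. Exon events, motifs and long coding transcripts were added after the data were seen. Libraries of a line differed by more than counting noise (chi-square per degree of freedom 3.06 to 7.56).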

Additional observations from a re-analysis of the deposited data

How the results depend on the processing

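The number of genes called, 8272, was within 1.5 times of that value in all 14 alternatives and ranged from 7778 to 8258 with each library left out. Of the 8 genes named by kinship 7 were called in every alternative except the one with effective lengths, where Fcho2 and Itsn1 lost their calls and 5 remained. With effective lengths Fcho2 changed sign (-0.0011), as did Wipf1 (0.0272), and Aak1 was called higher at 0.14. Of 131 tested members and pathway genes, 104 kept direction and side of the threshold in every alternative.

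Transcript shares called numbered 259, 1111 with limma diffSplice and 283 to 334 with a library left out. Under limma diffSplice Dnm1-213 (adjusted p = 0.121) and Dnm2-212 (adjusted p = 0.130) did not pass. Splicing events called numbered 34, 19 with TPM and 14 to 36 with a library left out. The Dnm2 exon pair had a log2 ratio difference of 1.07, and 1.04 to 1.10 with a library left out. Paralog shares in LM2 from counts in place of TPM were 41.0% for Fcho1, 66.9% for Snx9, 16.4% for Snx18, 16.7% for Snx33 and 36.4% for Dnm1. From long coding transcripts they were 49.1%, 73.5%, 13.4%, 13.2% and 29.9%. With an LM2 library left out they stayed at 64.5% to 65.7% for Fcho1, 73.8% to 74.7% for Snx9, 12.9% to 13.1% for Snx18, 12.3% to 13.3% for Snx33 and 46.5% to 47.6% for Dnm1.

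Replicate numbers did not pair the lines, with correlations of same-numbered libraries of -0.08, 0.05 and 0.01 in their deviations. With a replicate block 8250 genes, 190 transcript shares and 0 splicing events were called, and the Dnm2 exon pair had 1.07 (adjusted p = 0.142). The block also ended the calls of Dnm2-204 (adjusted p = 0.0722) and Ap2m1 (adjusted p = 0.0504). The low counts of Fcho1 and Snx18 in Parental limit the precision of their folds.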

Other observations

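Outside the 10 genes, transcript use among the pathway lists differed rarely: 3 of 493 tested transcripts (0.609%) were called with edgeR diffSpliceDGE, against 0.714% over all genes. Cttn-202, of the actin-binding protein cortactin that meets dynamin at pits, held 36.7%, 37.8% and 37.0% of the Cttn counts in Parental and 48.2% ± 2.16 on average in LM2 (adjusted p = 0.00666). Picalm-202, of the clathrin assembly protein CALM, was near 0% in Parental and held 2.39% ± 1.81 in LM2 (adjusted p = 3.35e-10). Its LM2 libraries were far apart, at 4.46%, 1.09% and 1.64%. Pip5k1a-201, of a kinase that makes the lipid bound by AP2, held 2.58% ± 1.37 in LM2 against 0.0021% in Parental (adjusted p = 1.47e-05). Picalm-202 and Pip5k1a-201 had almost no counts in Parental and so passed the count filter through the LM2 libraries alone. How far these calls depend on the way kallisto divides reads among overlapping transcripts was not tested.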
